A study of Mus musculus with 6 samples.

Results

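The genes of the MHC class II pathway were followed in the microglia (macrophages that reside in the brain) of amyloid-model mice given an antibody that blocks the human inhibitory receptor LILRB4. The 10 genes were chosen by name from 55493 genes in the count table: the invariant chain Cd74, the classical chains H2-Aa, H2-Ab1 and H2-Eb1, the peptide editor genes H2-DMa, H2-DMb1 and H2-DMb2, the editor's inhibitors H2-Oa and H2-Ob, and the transactivator Ciita. No measured value was part of the rule for that choice, but earlier results of these data were known when it was made. All 10 passed the filter on low counts. All mice were males of the genotype ILT Telo Tg x 5XFAD, in which a human LILR gene region (the ILT Telo transgene) is combined with 5XFAD, a transgenic line that overproduces mutant human amyloid precursor protein and presenilin 1 in neurons. From 4 months of age they were injected intraperitoneally once a week, 8 times, with 60 mg/kg of Fc-mutant antibody, either ZM3.1 against LILRB4 (also called ILT3; anti-LILRB4 group, 3 libraries) or the control antibody 27D6 (named Ctrl IgG2a in the labels; control group, 3 libraries). Mice without the transgene, without amyloid or without an antibody are not among the libraries, so every level below is that of an amyloid-bearing, LILR-transgenic, antibody-injected mouse.

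MHC class II molecules present peptides from the endosome to CD4 T cells. An alpha and a beta chain pair in the endoplasmic reticulum around the invariant chain, which fills the peptide groove and steers the complex to the endosome, where proteases such as cathepsin S cut it down to a short fragment. The editor H2-DM exchanges that fragment for antigenic peptides, and H2-DO (encoded by H2-Oa and H2-Ob) inhibits H2-DM. Transcription of most of these genes depends on CIITA, which interferon gamma induces and which binds a complex of RFX, CREB and NF-Y factors assembled on the X and Y boxes of the promoters. Resting microglia carry little class II on their surface, and class II genes are known to be raised in microglia around amyloid and by interferon gamma.

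Values given in a row of 3 are those of libraries 1, 2 and 3 of the group named. Total counts were between 39805118 and 56345514 per library. Microglia markers summed to between 48231 and 50254 CPM (read counts scaled to a common library size with TMM factors) in controls and between 50324 and 50869 in treated libraries, with P2ry12 among the most abundant, and none of the 12 markers was at 0 in any library. Of 18210 genes tested, 0 passed edgeR's quasi-likelihood test at a Benjamini-Hochberg adjusted p of 0.05 (smallest adjusted p 0.385), 1463 had an unadjusted p below 0.05, and DESeq2 called 169. The human LILRB4 transcript itself was at 1029, 1031 and 1078 CPM across the controls and at 850, 1304 and 3297 CPM across the treated libraries, so anti-LILRB4 library 3 stood apart in the target of the antibody. The labels do not say that the libraries came from separate animals, and p-values then measure the spread between libraries only. In sorted bulk samples, a change in the share of cells that express a gene and a change in RNA per cell cannot be told apart.

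Among the 10 genes, Cd74 was at 1.90 times the control level in the anti-LILRB4 libraries, while the classical chains that its product accompanies differed little between the groups. H2-Oa was higher by a smaller amount, and its partner H2-Ob was not. None of the 10 genes was called by edgeR (0% of all genes tested were), 2 of 10 had an unadjusted p below 0.05 against 8.03% of all genes, and DESeq2 called 1 of 10 (Cd74) against 0.928% of all genes. In 2 of 10, Cd74 and H2-Oa, all treated libraries lay above all controls, which held for 6.94% of all genes tested, and in 0 of 10 did they all lie below (7.79% of all genes). The median log2 fold change was 0.04 over the 10 genes, with 7 positive and 3 negative, and -0.01 over all genes tested.

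**Figure D1:**
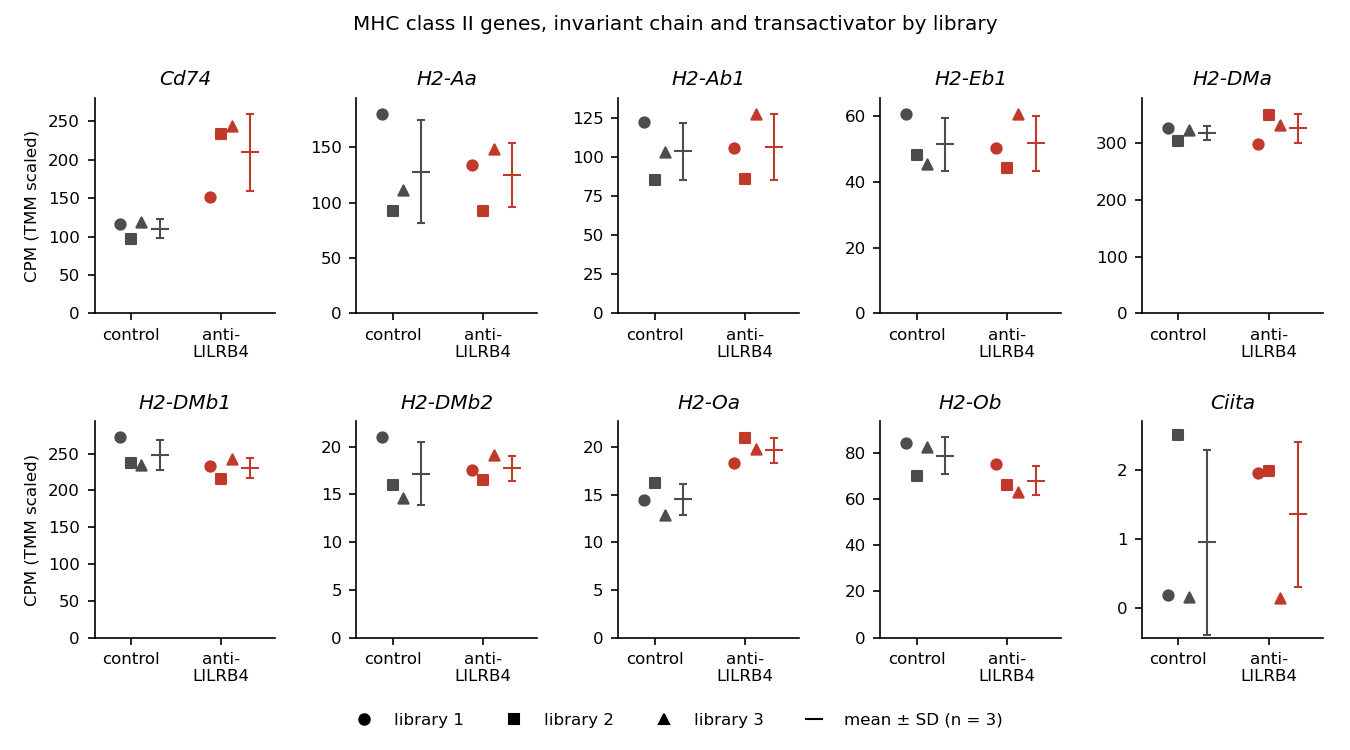
CPM (TMM scaled, linear axes) of each of the 10 genes in the 3 control (grey) and 3 anti-LILRB4 (red) libraries, with the group mean and SD beside the points; library numbers do not pair the groups. Treated points of Cd74 (151 to 244 CPM) and H2-Oa (18.3 to 20.9 CPM) lie above all controls, the other 8 genes overlap, and Ciita splits the libraries across both groups.

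Cd74 (ENSMUSG00000024610, GRCm38 chromosome 18, 60803848 to 60812652, plus strand) encodes the invariant chain, which is also a surface receptor for the cytokine MIF. It was at 116, 96.4 and 119 CPM across the controls and at 151, 233 and 244 CPM across the treated libraries. The lowest treated library thus lay above the highest control, and treated libraries 2 and 3 were far above treated library 1. The mean was 110.5 ± 12.3 CPM (SD, n = 3) in controls and 209 ± 50.7 CPM in the treated group, which gave a log2 fold change of 0.92, a standard error of 0.18 and a 95% interval of 0.53 to 1.32. edgeR's adjusted p was 0.410 and that of limma-voom 0.347, whereas DESeq2 gave 0.000458 on the same genes and edgeR without a filter on low counts, which called 0.847% of the genes it tested, gave 1.12e-08. The fit without a filter also gave 2.54e-13 for the neutrophil marker S100a8. The groups overlapped for S100a8, and its adjusted p in the main edgeR fit was 0.707. The authors' deposited table lists Cd74 with a log2 fold change of 0.93 and an adjusted p of 0.00118. By unadjusted p in edgeR Cd74 ranked 18 of 18210 genes, and among the 6723 genes with a mean log2 CPM of at least 4 a difference at least as large as that of Cd74 was reached by 12 genes (0.178%), against 9.04% of all genes tested. With any 1 library left out the log2 fold change stayed between 0.80 and 1.11. Reads of Mir5107, whose exon lies within those of Cd74, numbered at most 2 per library, and none of the 50-base words of Cd74 transcripts occurred in another gene's transcripts.

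Of the classical chains, H2-Aa and H2-Ab1 encode the I-A dimer, a peptide-binding molecule. H2-Eb1 encodes the beta chain of I-E, whose alpha chain gene H2-Ea was at 0.0678 CPM or less in all 6 libraries. H2-Aa (chromosome 17, 34282744 to 34287823, minus strand) was at 180, 92.2 and 111 CPM across the controls and at 134, 92.7 and 148 CPM across the treated libraries. Control library 1 was the highest of all and the groups overlapped, with a log2 fold change of -0.03 and a 95% interval of -0.58 to 0.52. H2-Ab1 (34257689 to 34269419, plus strand) was at 122, 85.6 and 103 CPM in controls and at 106, 85.8 and 128 CPM in treated libraries, with a log2 fold change of 0.04 (interval -0.35 to 0.42). H2-Eb1 (34305867 to 34316674, plus strand) was at 60.5, 48.1 and 45.4 CPM in controls and at 50.2, 44.1 and 60.7 CPM in treated libraries, with a log2 fold change of 0.01 (interval -0.36 to 0.37). All 3 chains shared an order of libraries within the treated group, library 3 highest and library 2 lowest, whereas Cd74 in library 2 was close to library 3. The edgeR adjusted p was between 0.973 and 0.995 for the 3 chains, and DESeq2 called none of them (0.972 to 0.994). Leaving out single libraries turned the sign of each chain, with log2 fold changes between -0.21 and 0.30 for H2-Aa, -0.11 and 0.18 for H2-Ab1, and -0.13 and 0.14 for H2-Eb1.

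**Figure D2:**
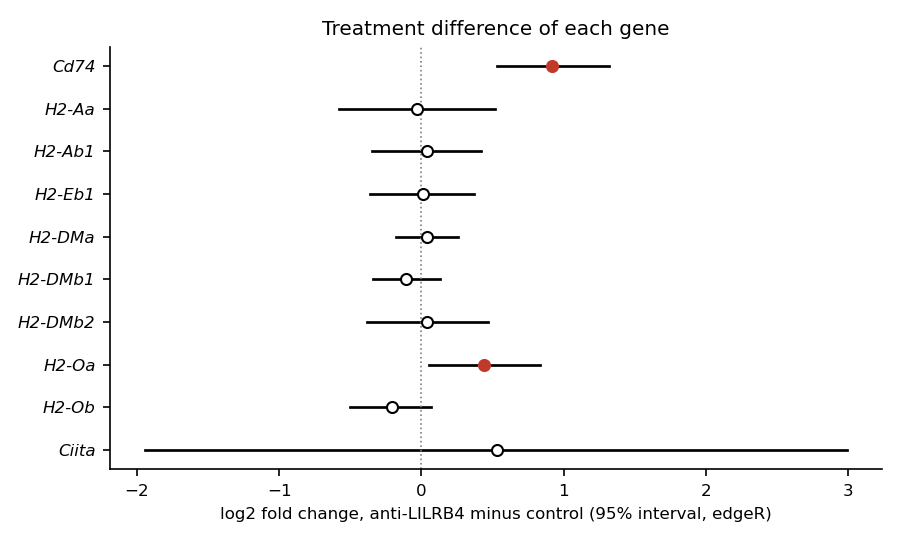
Log2 fold change, anti-LILRB4 minus control, of each gene in edgeR, with its 95% interval; filled red points mark genes whose treated libraries all lie above all controls. The intervals of Cd74 (0.53 to 1.32) and H2-Oa (0.05 to 0.83) lie above 0, the other intervals include 0, and that of Ciita is the widest.

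How Cd74 stood to its chains was followed library by library as the ratio of CPM per kilobase of exon. The length used scales all libraries alike, so it leaves the comparison of groups unchanged but sets the level of each ratio. Per kilobase of the longest coding transcript, Cd74 in controls (78.3) lay below H2-Aa (113) and H2-Ab1 (85.5). The ratio of Cd74 to H2-Aa was 1.46, 2.36 and 2.42 across the controls and 2.55, 5.69 and 3.72 across the treated libraries. The ratio to H2-Ab1 was 1.65 ± 0.166 (SD, n = 3) in controls against 3.09 ± 0.996 in treated libraries, and that to H2-Eb1 was 2.52 ± 0.433 and 4.76 ± 1.33. In each of these 3 ratios every treated library lay above every control. A two-sided exact permutation test gave p = 0.1 for each, the smallest value that 3 against 3 libraries allow, and 0.175 after adjustment over the 7 ratios compared. The ratio of H2-Aa to H2-Ab1, which encode the chains of 1 dimer, was 0.818 ± 0.155 in controls and 0.791 ± 0.0649 in treated libraries (exact permutation p = 1). The ratios were chosen after the levels were known. Cd74 made up 9.72, 9.95 and 11.3% of the counts of all 10 genes across the controls and 13.9, 20.7 and 19.4% across the treated libraries.

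**Figure D3:**
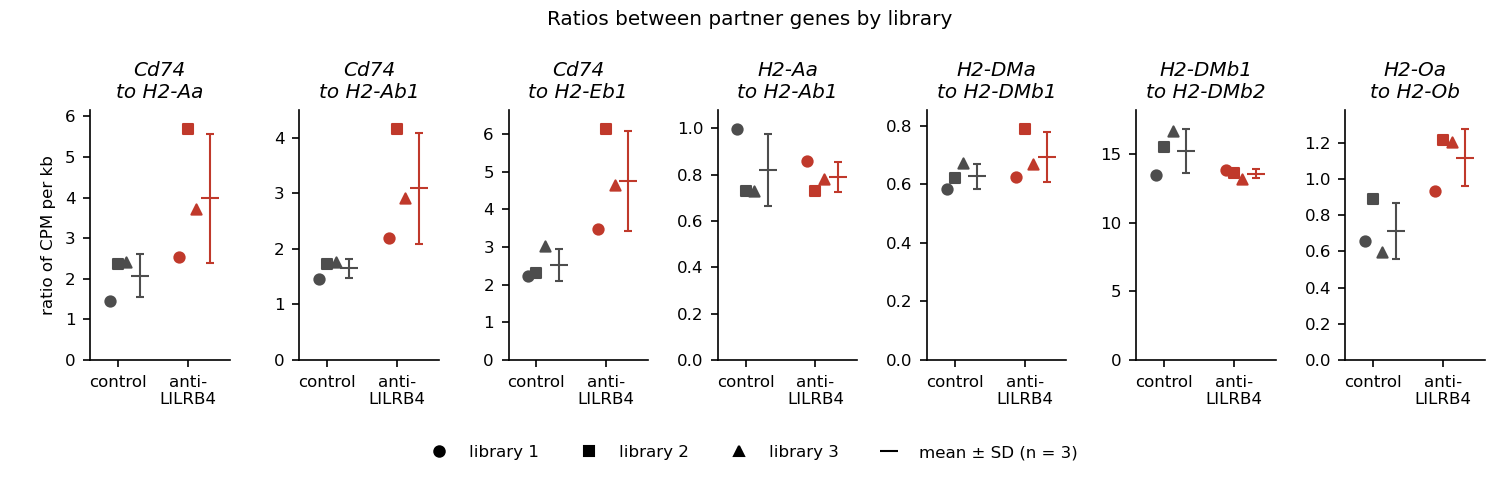
Ratios of CPM per kilobase of exon between genes whose products act together, in 3 control (grey) and 3 anti-LILRB4 (red) libraries, with the group mean and SD. The 3 ratios of Cd74 to a classical chain and the ratio of H2-Oa to H2-Ob are higher in every treated library than in every control, and the other 3 ratios overlap.

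H2-DMa and H2-DMb1 were the most abundant of the 10 genes per length in controls and H2-DMb2 was among the least, and the groups overlapped for all 3 editor genes. H2-DMa (34119541 to 34139101, plus strand), the alpha chain of H2-DM, was at 327, 303 and 323 CPM across the controls and at 299, 349 and 333 CPM across the treated libraries. Treated library 1 was the lowest and treated library 2 the highest of all, and the log2 fold change was 0.04 with an interval of -0.18 to 0.26, the narrowest of the 10 genes. H2-DMb1 (34153072 to 34160230, plus strand), which encodes a beta chain of H2-DM, was at 272, 238 and 234 CPM in controls and at 234, 216 and 242 CPM in the treated group, which gave a log2 fold change of -0.11 (interval -0.34 to 0.13). H2-DMb2 (34143307 to 34151555, plus strand), the second beta chain gene, was at 17.2 ± 3.34 CPM in controls and 17.7 ± 1.31 CPM in treated libraries (SD, n = 3), giving a log2 fold change of 0.04 (interval -0.38 to 0.47) whose sign turned when single libraries were left out (-0.06 to 0.21). H2-DMb1 was thus counted at 13.2 to 16.6 times H2-DMb2 per kilobase in the 6 libraries. Of the 50-base words in H2-DMb1 transcripts, 22.7% also occur in H2-DMb2 transcripts, so the split of reads from those shared stretches between the genes is uncertain. Exons of H2-DMa overlap those of Brd2 on the other strand, which was at 76.9 to 91.7 CPM.

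H2-Oa and H2-Ob encode the chains of H2-DO, the inhibitor of H2-DM, and their log2 fold changes had opposite signs. H2-Oa (34092340 to 34095234, plus strand) was at 14.4, 16.2 and 12.9 CPM across the controls and at 18.3, 20.9 and 19.8 CPM across the treated libraries. Each treated library lay above each control, with a log2 fold change of 0.44, a standard error of 0.17 and an interval of 0.05 to 0.83. Its edgeR p was 0.0293 before adjustment and 0.566 after it, DESeq2 gave an adjusted p of 0.244, and the value in the authors' deposited table was 0.213. H2-Ob (34238903 to 34254414, plus strand) was at 84.1, 69.8 and 82.5 CPM in controls and at 75.0, 65.9 and 62.9 CPM in treated libraries. The groups overlapped through control library 2 and treated library 1, and the log2 fold change was -0.21 with an interval of -0.50 to 0.07. The ratio of H2-Oa to H2-Ob per kilobase of exon was 0.656, 0.886 and 0.597 across the controls and 0.933, 1.21 and 1.20 across the treated libraries (exact permutation p = 0.1, adjusted 0.175). Per kilobase of the longest coding transcript, mean H2-Oa stayed below H2-Ob in the treated group (18.1 beside 25.5 CPM). The H2-Oa exons overlap those of BC051537 on the other strand, which had between 2 and 20 reads per library beside 566 to 1195 for H2-Oa.

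Ciita (ENSMUSG00000022504, chromosome 16, 10480059 to 10528418, plus strand), the transactivator of the pathway, was the least abundant of the 10 genes and divided the libraries in a way that did not follow the treatment. It had 8, 101 and 7 reads across the controls and 88, 113 and 6 reads across the treated libraries. Control library 2 and treated libraries 1 and 2 were therefore at 1.95 to 2.50 CPM and the other 3 libraries at 0.146 to 0.181 CPM. The log2 fold change was 0.53 (standard error 1.10), and its interval ran from -1.94 to 2.99. It was 0.04, 2.99 and 0.03 without control library 1, 2 or 3, 0.17, 0.16 and 1.06 without treated library 1, 2 or 3, 1.18 in limma-voom and 0.90 with replicate number as a block, so its size rests on single libraries, and no fit called it. Treated library 3, among the lowest for Ciita, was the highest for Cd74, H2-Ab1 and H2-Eb1, and control library 2, the highest for Ciita, was the lowest control for Cd74, H2-Aa and H2-Ab1. For H2-Oa the order matched that of Ciita in part: control library 2 was the highest control and treated library 2 the highest treated library. Treated library 3, the lowest of all for Ciita, nonetheless lay above treated library 1 for H2-Oa (19.8 beside 18.3 CPM). For Ciita, treated libraries 1 and 2 were nearly equal (1.95 and 1.98 CPM). Dexi, on the other strand, overlaps the exons of Ciita and was at 3.11 to 6.49 CPM.

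Ranked by mean CPM per kilobase of exon, the controls ran from H2-DMb1 (148) through H2-DMa (92.1), Cd74 (65.8), H2-Ab1 (40.3), H2-Aa (33.7), H2-Eb1 (26.4), H2-Ob (14.7), H2-Oa (10.3) and H2-DMb2 (9.83) to Ciita (0.0994). The libraries of H2-Ab1 and H2-Aa, of H2-Aa and H2-Eb1, and of H2-Oa and H2-DMb2 overlapped, so those neighbours were not separated. In treated libraries Cd74 stood second, at 90.0, 139 and 145 CPM per kilobase in libraries 1, 2 and 3, and overlapped both neighbours, H2-DMb1 at 139, 128 and 144 and H2-DMa at 86.7, 101 and 96.5. The order depends on the gene length used: per kilobase of the longest coding transcript H2-Aa (113) and H2-Ab1 (85.5) stood above Cd74 (78.3) in controls and below it in treated libraries (111 and 87.8 beside 148). H2-DMa and H2-DMb1 stood above every classical chain with either length.

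Promoter sequence is shown because the genes of the pathway share regulatory boxes. RefSeq promoter sequences (GRCm38.p6, 250 bases before to 50 after the start) were used for 7 of the 10 genes, all but Cd74, H2-Ab1 and Ciita. They were searched on both strands for a core of the X box, AGNAAC, and a core of the Y box, ATTGG, which do not overlap. Over all 32851 promoter sequences, 48.1% held the first, 37.4% the second, and 1.12% held both on 1 strand with the start of the second 20 to 40 bases after that of the first, a spacing chosen after the sequences of these genes were seen. That arrangement was found in 4 of the 7 genes, H2-Eb1, H2-DMb1, H2-Oa and H2-Ob, and a Y core outside that arrangement in H2-Aa, H2-DMb2 and 1 of the RefSeq starts of H2-DMa. The H2-Aa stretch below holds ggcaac before its Y core, which differs from the searched X core only in the first letter. The search therefore does not show that a gene without the arrangement lacks an X box. In the following 100-base stretches, from 110 to 11 bases before the RefSeq start and written 5′ to 3′ on the gene's strand, capitals mark the X and Y cores on the strand shown; H2-Eb1 also holds a Y core on the other strand, left in lower case. They are H2-Aa at chr17:34287834-34287933 (minus strand), H2-Eb1 at chr17:34305757-34305856, H2-DMb1 at chr17:34153081-34153180, H2-DMb2 at chr17:34145139-34145238, H2-Oa at chr17:34092269-34092368 and H2-Ob at chr17:34238795-34238894 (all plus strand).
H2-Aa: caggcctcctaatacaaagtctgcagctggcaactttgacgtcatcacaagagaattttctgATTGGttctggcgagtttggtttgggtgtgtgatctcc
H2-Eb1: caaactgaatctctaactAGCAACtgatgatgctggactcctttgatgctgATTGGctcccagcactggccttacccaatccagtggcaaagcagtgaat
H2-DMb1: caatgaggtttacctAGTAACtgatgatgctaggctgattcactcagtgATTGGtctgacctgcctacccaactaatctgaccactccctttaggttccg
H2-DMb2: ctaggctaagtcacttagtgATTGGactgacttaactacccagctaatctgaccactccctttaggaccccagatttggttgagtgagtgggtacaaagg
H2-Oa: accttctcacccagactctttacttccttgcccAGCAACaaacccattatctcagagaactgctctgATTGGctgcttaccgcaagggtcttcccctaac
H2-Ob: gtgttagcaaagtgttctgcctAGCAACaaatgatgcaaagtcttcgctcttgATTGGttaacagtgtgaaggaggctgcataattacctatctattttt
The X and Y cores started 33 bases apart in H2-Eb1, 34 in H2-DMb1, 34 in H2-Oa and 31 in H2-Ob. H2-Oa and H2-Ob thus both carry this arrangement of cores, and whether it bears on their values in the 2 groups was not tested. A match is a description of letters and not a measured binding site.

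The factors that assemble on these boxes were all measured. Of 11 enhanceosome and coactivator genes, 8 had a positive and 3 a negative log2 fold change (median 0.20), edgeR called 0, and at an unadjusted p below 0.05 there were 2 higher (4.12% of all genes) and 1 lower (3.91% of all genes). Crebbp, encoding the acetyltransferase CBP that CIITA recruits, was at 45.2, 71.1 and 60.6 CPM across the controls and at 80.6, 139 and 108 CPM across the treated libraries. All treated libraries lay above all controls, and the log2 fold change was 0.89 (standard error 0.22), at adjusted p-values of 0.426 (edgeR) and 0.0101 (DESeq2). Rfx5, a DNA-binding subunit of the RFX complex, was at 3.82, 5.85 and 3.39 CPM in controls and at 7.25, 6.19 and 4.25 CPM in treated libraries, with overlapping groups. Rfxank, another RFX subunit, had a log2 fold change of 0.43 (edgeR unadjusted p 0.0184, adjusted 0.525). Nfyb, a subunit of NF-Y, had one of -0.30 (edgeR unadjusted p 0.0467, adjusted 0.614). The groups did not overlap for either gene. Creb1, which binds beside RFX, had a log2 fold change of -0.19 and lay below all controls in every treated library, at an unadjusted p of 0.165.

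The interferon gamma branch that induces Ciita had 0 of 9 tested genes past an unadjusted p of 0.05, a count near the 8.03% of all genes, with a median log2 fold change of 0.05. Ifngr1, the ligand-binding receptor chain, was the most abundant, at 2178 ± 162 CPM (SD, n = 3) in controls against 2001 ± 170 CPM in treated libraries. Ifngr2, the second receptor chain, had a log2 fold change of 0.05, and the kinase gene Jak1 one of 0.26. Irf1, a transcription factor that interferon gamma induces, had a log2 fold change of -0.19 with an interval of -0.48 to 0.09. Ifng itself had reads in 1 library only, control library 3, at 0.137 CPM.

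Among 9 genes of class II proteolysis, 7 had a positive and 2 a negative log2 fold change (median 0.08), with 1 higher and 2 lower at an unadjusted p below 0.05 (4.12% and 3.91% of all genes) and 0 called by edgeR. Ctss encodes cathepsin S, the protease that removes most of the invariant chain in antigen-presenting cells of bone marrow origin. It was at 3244, 3074 and 3011 CPM across the controls and at 3252, 4894 and 4271 CPM across the treated libraries, which gave a log2 fold change of 0.41 with an edgeR adjusted p of 0.503. Treated library 1 lay just above the highest control and libraries 2 and 3 well above it. Cd74 divided the treated libraries likewise. So did the microglia markers Csf1r, at 3010, 5328 and 3703 CPM in treated libraries, and Fcrls, at 1943, 2998 and 2443 CPM. Ctsl encodes cathepsin L, which takes the role of cathepsin S in thymic epithelium. It lay in the other direction from Ctss, at 1331, 1030 and 1158 CPM in controls and at 919, 884 and 764 CPM in the treated group. Its log2 fold change was -0.46 (standard error 0.11), with adjusted p-values of 0.426 (edgeR) and 0.0468 (DESeq2). Lgmn, an asparaginyl endopeptidase, Ctsd, an aspartic protease, and Ifi30, a thiol reductase that opens disulfide bonds of antigens, had log2 fold changes of 0.08, 0.14 and 0.20.

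**Figure D4:**
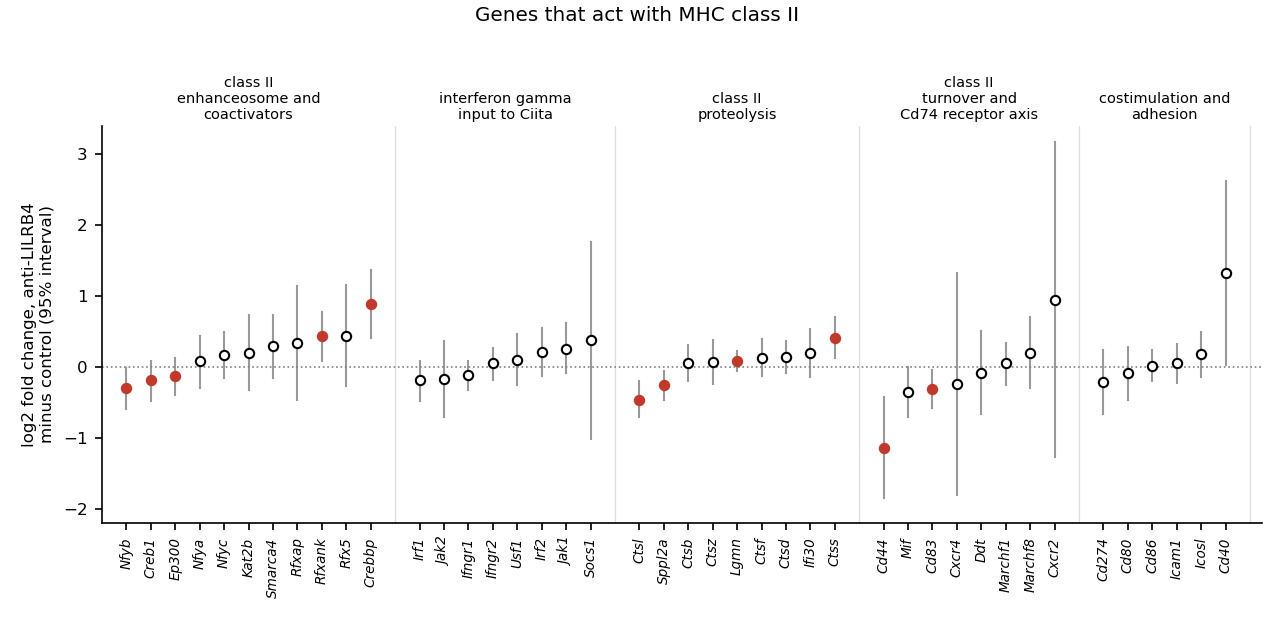
Log2 fold change, anti-LILRB4 minus control, with 95% intervals in edgeR for tested genes of 5 groups that act with MHC class II (1 tested gene is not shown), ordered by value within each group; red points mark genes whose groups do not overlap. Crebbp (0.89) and Ctss (0.41) lie on the higher side and Cd44 (-1.14) and Ctsl (-0.46) on the lower side, and edgeR called none of the genes shown.

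Genes that set the surface life of class II and the receptor role of Cd74 had 5 of 8 negative values, a median log2 fold change of -0.16, and 2 lower and 0 higher at an unadjusted p below 0.05 (3.91% and 4.12% of all genes). Cd44, the signalling partner of Cd74 on the surface, was at 11.5, 6.92 and 7.44 CPM across the controls and at 4.28, 4.82 and 2.62 CPM across the treated libraries. All treated libraries lay below all controls, with a log2 fold change of -1.14 and an edgeR adjusted p of 0.450. Cd83, whose product protects class II from ubiquitination, was at 333 ± 47.1 CPM in controls and 268 ± 19.7 CPM in treated libraries (SD, n = 3), with groups that did not overlap and an adjusted p of 0.566 in edgeR. Marchf1, the ubiquitin ligase that removes class II from the surface, had a log2 fold change of 0.05, and Mif, the ligand of Cd74, one of -0.35 with overlapping groups. Of 6 tested genes of costimulation and adhesion, which accompany class II in T cell activation, 4 were positive and 2 negative (median 0.04). Cd86 was at 311 ± 19.1 CPM in controls and 316 ± 19.6 CPM in treated libraries, Cd80 had a log2 fold change of -0.09, and Icam1, an adhesion molecule, one of 0.05. Cd40, a receptor for T cell help, was at 0.497, 0.446 and 1.50 CPM in controls and at 1.29, 1.87 and 3.01 CPM in treated libraries (adjusted p 0.614 in edgeR).

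Cells other than microglia also carry class II, and the sort on CD45-low CD11b-positive cells is meant to leave most of them out. Markers of B cells summed to 145 to 214 CPM in controls and 181 to 281 CPM in treated libraries, with 9 of 10 tested and led by Bank1 and Cd79b. Of the B cell markers, Fcer2a and Blk were at 0 in some libraries. Dendritic cell markers summed to 29.7 to 39.1 CPM in controls and 34.6 to 41.1 CPM in treated libraries (7 of 8 tested, Clec9a at 0 in some libraries), with Batf3 and Itgae the most abundant. Border-associated macrophage markers summed to 45.6 to 60.1 and 51.7 to 84.3 CPM (10 of 10 tested), led by Pf4 and Ms4a7 and highest in treated library 3. Monocyte markers summed to 43.4 to 90.0 and 24.9 to 67.0 CPM (4 of 5 tested), led by Chil3 and Ccr2, and T cell markers to 1.14 to 1.47 and 1.54 to 2.89 CPM (2 of 8 tested, 7 of 8 at 0 in some libraries), led by Lck and Cd3d. Neutrophil markers summed to 745 to 1489 CPM in controls and 335 to 1432 CPM in treated libraries (10 of 10 tested, Mmp8 at 0 in 1 library), led by S100a8 and Csf3r. Groups overlapped for every summed list except those of microglia and T cells, which were higher in all treated libraries. Gene by gene, 8 of 10 neutrophil markers were negative and 2, Csf3r among them, positive (median log2 fold change -0.88). Of tested monocyte markers 4 were negative and 0 positive (median -0.68). Of border-associated macrophage markers 9 were positive and 1 negative (median 0.34). Of 12 microglia markers 3 (Sall1, Fcrls and Csf1r) were higher at an edgeR unadjusted p below 0.05 and 0 lower (4.12% and 3.91% of all genes). edgeR called 0 genes of these lists. Within the T cell list Lck averaged 0.686 CPM in controls and 1.51 CPM in treated libraries, and Cd3d 0.287 and 0.0971 CPM. The part of these cell types in the Cd74 and H2-Oa values was not tested.

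**Figure D5:**
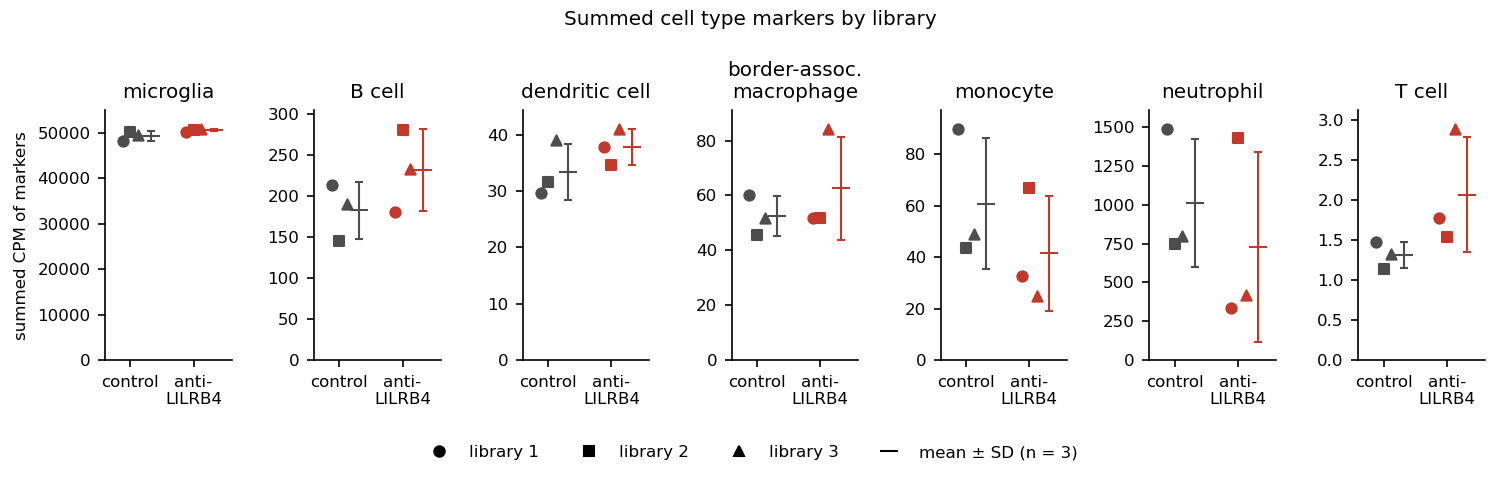
Summed CPM of marker lists for 7 cell types in 3 control (grey) and 3 anti-LILRB4 (red) libraries, with the group mean and SD, on linear axes that differ between panels. Microglia markers sum to 48231 CPM or more, and the sums for B cells (145 to 281 CPM), dendritic cells and border-associated macrophages overlap between the groups.

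The genes whose library pattern came closest to that of Cd74 were sought among 6722 genes with a mean log2 CPM of at least 4, by the root mean square difference of log2 CPM centred on each gene's mean over the 6 libraries. The closest were Gp9, a subunit of the platelet von Willebrand factor receptor (difference 0.13), Gatad2a, a subunit of the NuRD chromatin-remodelling complex (0.15), Ssh1, a cofilin phosphatase (0.18), Arpc1b, a subunit of the actin-nucleating Arp2/3 complex (0.18), and Arid5a, an RNA- and DNA-binding protein (0.19). Their log2 fold changes, which the choice by pattern sets close to that of Cd74, were 0.74, 0.83, 0.91, 0.83 and 0.73. Of these 5 genes edgeR called 0 and DESeq2 called 4, all but Arid5a (adjusted p 0.0537). H2-Oa was the closest of the class II genes, at a difference of 0.34 and rank 227, followed by H2-DMa at 0.46 and rank 1636. The classical chains stood at 0.51 to 0.61, with ranks of 2979 for H2-Ab1, 3174 for H2-Eb1 and 5424 for H2-Aa.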

How the data were processed

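The authors deposited raw read counts per Ensembl gene, whole numbers with no normalization per the file headers and values. Tools in the submitters' processing notes are STAR, Subread with featureCounts, Salmon and DESeq2 (1.38.3), with no role stated; build and annotation: not given in the sources used here. Per the labels' protocols the SMARTer Ultra Low RNA kit was used, a method that keeps no strand. A table of the authors' own comparison, with column names as DESeq2 writes them per the file headers, gives a mean normalized signal, a log2 fold change, a score (fold change over its error) and p-values; it was used only where named.

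From the counts, 287 repeated identifiers with identical values were dropped. All pairs of libraries differed by more than sampling noise. The test was edgeR 4.0.16 (filterByExpr with a minimum count of 10, TMM, quasi-likelihood F test, no covariate, Benjamini-Hochberg over 18210 genes). Standard errors are the fold change over the square root of F, and 95% intervals use the degrees of freedom of that fit. Alternatives were DESeq2 1.42.0, limma-voom 3.58.1, other scalings and filters, robust dispersion, a replicate block, an adjusted p of 0.1 and leaving out each library. The tests were run on simulated counts, where the first target for the share of changed genes recovered was missed by edgeR and limma-voom and was replaced by checks of the sign and size of the changes; DESeq2 made more false calls there than edgeR. Coordinates and exon lengths are GENCODE M21 (GRCm38), and promoters RefSeq. Genes named are all 10 class II genes, the most abundant pair of each other list, the smallest p of each pathway list, 12 further genes listed by name and the 5 closest to Cd74. Rfxank, Nfyb, Fcer2a, Blk, Clec9a, Mmp8, Ifng, LILRB4, Sall1, Fcrls, Csf1r and the overlapping genes were added after their values were seen. Some genes under this rule are not reported here. The class II genes and the lists were chosen with earlier results of these data known.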

Additional observations from a re-analysis of the deposited data

How the results depend on the processing

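At an adjusted p of 0.05 edgeR called 0 genes in either direction and 0 of the 10 class II genes (1463 genes and 2 class II genes at an unadjusted p below 0.05). DESeq2 called 84 higher and 85 lower genes, 1 of them a class II gene (Cd74), and edgeR without the low-count filter called 183 higher and 117 lower, again with 1 class II gene. All other alternatives, limma-voom and each fit without 1 library included, called 0; the cause of the difference was not tested. With 3 libraries per group, the width of the intervals given above limits the precision of each difference.

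The replicate numbers did not pair the libraries: deviations of same-numbered libraries correlated at 0.0136, 0.029 and -0.0138. With replicate number as a block, 0 genes were called, and Cd74 had a log2 fold change of 0.90 and an adjusted p of 0.292 in edgeR.

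Of the log2 fold changes of named genes under the alternatives, 756 kept their direction and side of the threshold, 17 newly passed it, 0 fell below it and 25 changed sign. H2-Eb1 was at -0.02 with upper quartile scaling and -0.01 in limma-voom, and Cd86 at -0.01 with upper quartile scaling. Leaving out 1 library at a time gave ranges that cross 0 for H2-Aa (-0.21 to 0.30), H2-Ab1 (-0.11 to 0.18), H2-Eb1 (-0.13 to 0.14), H2-DMb2 (-0.06 to 0.21), Ifngr2 (-0.003 to 0.09), Cd86 (-0.01 to 0.07), P2ry12 (-0.12 to 0.01), Itgae (-0.06 to 0.60), Pf4 (-0.25 to 0.51), Ms4a7 (-0.18 to 0.42), Ccr2 (-0.37 to 0.13), Cd80 (-0.17 to 0.004) and Marchf1 (-0.02 to 0.16). The range was 0.80 to 1.11 for Cd74 (adjusted p 0.19 to 0.67 in edgeR) and 0.36 to 0.53 for H2-Oa.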

Other observations

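The remaining genes of the class II locus were close to absent. H2-Ea, annotated as a polymorphic pseudogene, is the gene of the alpha chain that pairs with H2-Eb1. It was at 0.0678 CPM or less in all 6 libraries and at 0 in 2 of them, and it was not tested. H2-Eb2, a further beta chain gene, reached 0.719 CPM in control library 2 and 0.226 CPM or less in the other 5.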
